A study of Mus musculus with 67 samples.

Results

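Chromatin accessibility of p3 neural progenitors (NPs) was compared between cells exposed to 100 nM and to 500 nM SAG. The comparison took every p3 sample of the series, 8 at 100 nM and 6 at 500 nM, which are 14 of 67 samples. All came from HM1 mouse embryonic stem (ES) cells, a single parental line, taken off their fibroblast feeders and differentiated in N2B27 medium, first with bFGF and LGK, then with bFGF, CHIR99021, SB-431542 and DMH1, and from day 3 with retinoic acid and SAG. At 100 nM there were 3 samples on day 4, 3 on day 5 and 2 on day 6, and at 500 nM there were 2 on each of these days. In CaTS-ATAC, cells are fixed, transposed with Tn5, stained for transcription factors inside the cell and flow sorted, so each library holds the pooled cells of 1 gate. The p3 gate was SOX2+ NKX2.2+ OLIG2-, so NKX2.2 and OLIG2 protein chose the cells. The study treats replicates as independent differentiations. The other groups used here were pMN NPs from the same concentrations (8 and 7 samples), which stained for OLIG2, p0-1 NPs at 0 and 10 nM (17 samples), p2 NPs at 10 and 100 nM (18 samples), and 3 samples of neuromesodermal progenitors (NMPs) of day 3, which had received no SAG.

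SAG activates Smoothened, the membrane protein that Patched holds inactive until Sonic hedgehog (Shh) binds, and active Smoothened turns GLI proteins into transcriptional activators. In the neural tube, Shh from the notochord and floor plate patterns progenitors by its level and duration. The p3 domain, which gives rise to V3 interneurons, lies next to the floor plate and expresses NKX2.2 and NKX2.9, and the pMN domain dorsal to it expresses OLIG2 and gives rise to motor neurons. Both 100 and 500 nM SAG gave p3 and pMN NPs, so the comparison asks whether cells sorted as p3 had the same accessible elements whichever concentration they came from.

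The elements on which the results below turn are shown first, as the central 300 bases of each on the plus strand of mm10, read from the GRCm38 reference genome. They are the intergenic element that fell most on day 6, an intergenic element of the p3 identity gene Nkx6-1, an element in intron 1 of the Shh target Ptch1, and the only element that rose by more than 2-fold on day 6, in intron 3 of Aopep. Capitals mark matches to the letters TGGGTGGTC (GLI), TGTTTAC or TGTTTGC (FOXA), TNAAGTG (NKX2), ACAATGG (SOX), CATATG (OLIG), TGANTCA (AP-1), ATTTGCAT (Pou), TGGCA and TGCCA with 3 bases between them (NFI), or CCACNAG followed directly by GTGGCAG (CTCF), searched on both strands.
Olig1 distal element, chr16:91301493-91301792: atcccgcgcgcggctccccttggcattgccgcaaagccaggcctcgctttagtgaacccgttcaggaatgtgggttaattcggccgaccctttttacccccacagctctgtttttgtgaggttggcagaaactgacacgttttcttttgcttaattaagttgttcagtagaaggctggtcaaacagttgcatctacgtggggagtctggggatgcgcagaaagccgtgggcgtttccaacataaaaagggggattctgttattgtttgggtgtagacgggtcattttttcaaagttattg
Nkx6-1 distal element, chr5:101524154-101524453: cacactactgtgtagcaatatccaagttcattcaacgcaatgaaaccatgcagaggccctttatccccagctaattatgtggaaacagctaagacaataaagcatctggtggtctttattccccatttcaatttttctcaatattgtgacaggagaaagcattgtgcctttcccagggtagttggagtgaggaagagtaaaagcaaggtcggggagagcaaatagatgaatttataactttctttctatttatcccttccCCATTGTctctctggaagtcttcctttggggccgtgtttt
Ptch1 intronic element, chr13:63572676-63572975: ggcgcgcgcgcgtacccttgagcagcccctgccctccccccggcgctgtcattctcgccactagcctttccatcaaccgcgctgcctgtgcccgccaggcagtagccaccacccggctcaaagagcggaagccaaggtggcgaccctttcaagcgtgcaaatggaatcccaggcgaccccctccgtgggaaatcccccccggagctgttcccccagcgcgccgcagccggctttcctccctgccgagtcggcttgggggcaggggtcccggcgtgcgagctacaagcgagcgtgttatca
Aopep intronic element, chr13:63046538-63046837: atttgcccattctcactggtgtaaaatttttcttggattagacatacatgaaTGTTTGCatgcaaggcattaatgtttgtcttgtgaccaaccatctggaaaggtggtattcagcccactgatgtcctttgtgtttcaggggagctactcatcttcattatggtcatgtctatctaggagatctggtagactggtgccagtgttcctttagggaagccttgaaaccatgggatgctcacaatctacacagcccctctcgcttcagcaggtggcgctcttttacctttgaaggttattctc
The matches were CCATTGT, the reverse complement of the SOX letters, at base 261 of the Nkx6-1 window, and the FOXA letters TGTTTGC at base 53 of the Aopep window. The other 2 windows held none of the letters searched. Among all 33218 elements tested on day 6, 5.55% held the SOX letters, 11.9% the NKX2 letters, 11.3% the FOXA letters and 0.358% the GLI letters in such a window, 3.35% held OLIG letters, 6.63% AP-1, 1.69% Pou, 0.0452% NFI and 0.0632% CTCF letters.

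Depth was counted as reads in elements. The lowest, median and highest p3 sample had 9298160, 14719460 and 22274597 reads at 100 nM and 16667003, 21129540 and 23973955 reads at 500 nM. Libraries at 500 nM were deeper, with a mean of 20804699 ± 3051824 (SD, n = 6) against 15758560 ± 5375566 (SD, n = 8), and a two-sided exact permutation test that exchanged concentrations within days gave p = 0.0433 over 600 arrangements. The share of reads in promoter elements, 35.5% ± 1.91 at 100 nM and 34.6% ± 1.26 at 500 nM, gave p = 0.322 in the same exact test. The library of 100 nM day 4 replicate 1 was the shallowest, with 9298160 reads, and had the highest promoter share, 39.1%. The counts with days pooled, the tests between days and cell types, and the day 4 counts with all NPs are given with and without it. The day 4 comparison from p3 samples alone, with replicate number in the model, could not be fitted without it. In these sorted populations, fewer cells with an open element and a lower signal per cell cannot be told apart.

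The gate was checked against its markers. The promoter element of Foxa2, a pioneer factor of floor plate and p3, had 1078 to 1927 normalized counts in p3 NPs at 100 nM and 1174 to 2215 at 500 nM, and 221 to 1231 in pMN NPs. The element at the start of Olig2, in its intron 1, had 696 to 1220 in p3 NPs and 1204 to 2361 in pMN NPs. Summed over 39 elements annotated to the pMN markers Olig2, Olig1, Mnx1 and Lhx3, p3 NPs had 5518 to 8960 normalized counts, pMN NPs of day 6 had 18902 to 22360, and NMPs, which are neither, had 7098 to 8230. Over 82 elements of the p3 markers, sums on day 6 were 31085 and 33077 in p3 NPs at 100 nM and 27868 and 32717 at 500 nM, and 24439 and 27897 in pMN NPs at 100 nM and 24262 and 28909 at 500 nM. The summed pMN markers thus separated p3 from pMN NPs of day 6, and the single elements of Foxa2 and Olig2 overlapped at the edges of their ranges. The summed p3 markers were higher in p3 than in pMN NPs of the same number and concentration on days 5 and 6, with overlapping ranges, and lower on day 4.

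Across days 4 to 6, no element passed the test between 100 and 500 nM SAG in p3 NPs. Accessibility was modelled by limma on the deposited log2 values, with day and replicate number as covariates, over 31287 elements whose mean exceeded 100 normalized counts. With day and replicate in the model 0 elements met an adjusted p under 0.01 with a fold above 2, and 0 met an adjusted p under 0.05, which is 0.0% of those tested. An unadjusted p under 0.05 was reached by 1911 elements (6.11%), 1047 higher and 864 lower at 500 nM, and the lowest adjusted p was 0.646. With limma's voom on the recovered reads it was also 0, with 2430 at an unadjusted p under 0.05. The samples were precise enough to bound the difference averaged over days 4 to 6 at most elements, since its median SE was 0.0985 on the log2 scale. On the scale of the deposited log2 values, the 95% confidence interval lay within a 2-fold change in either direction for 31248 elements (99.9%) and within 1.5-fold for 29579 (94.5%). These intervals do not bound a change on a single day. The largest fitted increase was 0.66 and the largest decrease 0.61 below 0 on the log2 scale. Without the library of 100 nM day 4 replicate 1 the count was again 0, at an unadjusted p under 0.05 for 1967 of 31564 elements. Weighting libraries by limma's array weights gave 156 elements at an adjusted p under 0.05, 124 higher and 32 lower, of which 0 met the stricter rule, and the weights had not converged.

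**Figure D1:**
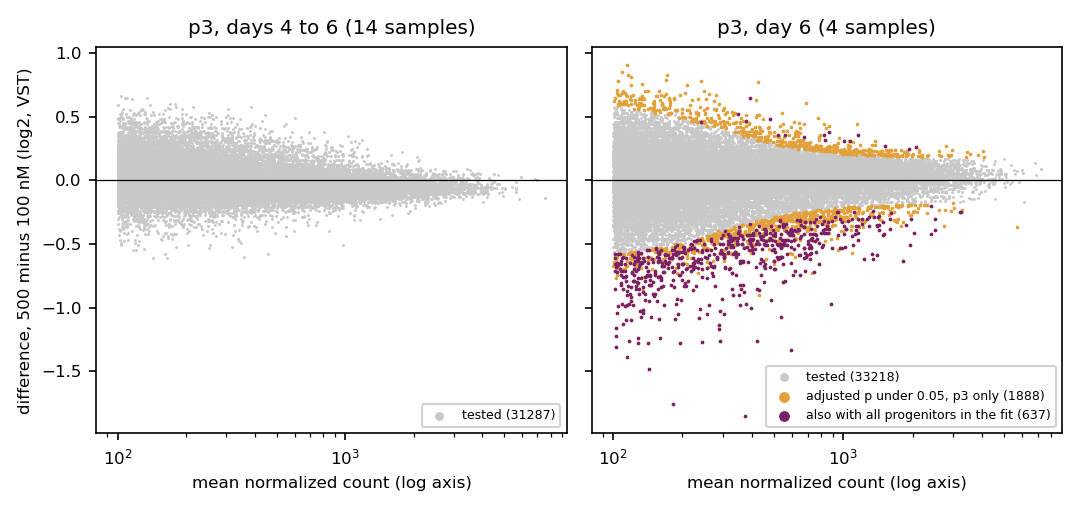
Difference between 500 and 100 nM SAG in p3 NPs (log2, VST, y axis) against the mean normalized count (log axis) for each element tested, over 14 samples of days 4 to 6 (left) and 4 samples of day 6 (right). No point is colored on the left, where 0 of 31287 elements passed, and on the right the colored points below 0 reach further than those above it, with 1318 lower and 570 higher at 500 nM.

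The same fit was applied to the other cell types sorted from 2 concentrations. In pMN NPs, between the same 100 and 500 nM, 12 of 31990 elements (0.0375%) passed an adjusted p under 0.05 in limma, 9 higher and 3 lower, and 0 passed the stricter rule. Between 0 and 10 nM, p0-1 NPs had 1211 of 30977 elements (3.91%), and between 10 and 100 nM, p2 NPs had 4938 of 31831 (15.5%). These steps of concentration differ from that of p3. Without replicate number in the model, 0 passed in pMN NPs, 325 in p0-1 NPs and 1644 in p2 NPs. Whether p3 and pMN NPs differed in their response was tested by a term for cell type and concentration, which called 0 of 31812 elements (0.0%) in limma, with 540 at an unadjusted p under 0.05 (0 and 637 without p3 100 nM day 4 replicate 1).

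No element at the start of a patterning gene passed when days were pooled, and most differences were small. At Gli1, a transcriptional target and effector of Shh, the element in intron 2 lies 837 bp from the start, at chr10:127338779-127342705. Its lowest, median and highest normalized counts were 1890, 2750 and 3363 at 100 nM and 1356, 2517 and 2851 at 500 nM, with a difference of -0.19 (SE 0.0738, 95% confidence interval -0.34 to -0.03, limma adjusted p = 0.815). The concentrations overlapped widely, and the lowest samples of each were those of day 6. The element of Ptch1, the Shh receptor and a target of the pathway, had 987, 1128 and 1476 at 100 nM and 848, 1148 and 1607 at 500 nM (difference -0.04, SE 0.0934). At Hhip, which binds and removes Shh, the element in intron 1 had 888, 1310 and 1779 against 1126, 1319 and 1565 (difference 0.01, SE 0.101). Both pairs of ranges overlapped over most of their length.

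Elements of the identity factors of p3 did not pass either. No element carries the name of Nkx2-2, the homeodomain factor of the gate, so the most read element inside the RefSeq span of the gene was taken, at chr2:147183999-147190942, a choice made after the annotation had been seen. It had 2260, 3263 and 3954 normalized counts at 100 nM and 2740, 3289 and 3829 at 500 nM (difference -0.01, 95% confidence interval -0.15 to 0.13). The promoter elements of its paralogue Nkx2-9 and of Nkx6-1, a homeodomain factor of ventral progenitors, differed by -0.01 (SE 0.0755) and -0.01 (SE 0.048). At the promoter of Foxa2 the difference was 0.09 (SE 0.0619, 95% confidence interval -0.04 to 0.22). The element nearest the start of Shh, 2800 bp from it, had 97, 185 and 347 against 107, 181 and 377 (difference -0.07, SE 0.115). Elements of factors of other domains and of all progenitors were at or below 0, with -0.15 (SE 0.0679) at Olig2, -0.12 (SE 0.0608) at Pax6, a homeodomain factor of more dorsal progenitors, and -0.13 (SE 0.0583) at Sox2, the factor of all NPs. The limma adjusted p of Olig2 and Sox2 was 0.815 and that of Pax6 was 0.826.

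**Figure D2:**
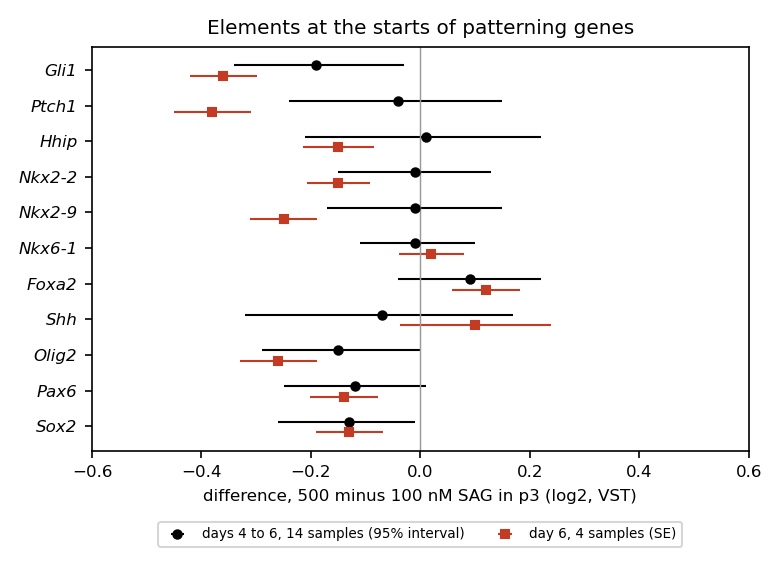
Difference between 500 and 100 nM SAG in p3 NPs (log2, VST, x axis) for elements at the starts of 11 patterning genes (y axis), with black circles and 95% confidence intervals for the 14 samples of days 4 to 6, and red squares with SE for the 4 samples of day 6. On day 6 Gli1 and Ptch1 lie furthest to the left, at -0.36 and -0.38, whereas Nkx6-1 sits at 0.02.

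Each day was then fitted on its own, with replicate number as a covariate. Few samples enter such a fit, and each element has 1 residual degree of freedom, so the spread shared between elements decides. On day 4, 33 of 29283 elements (0.113%) met the stricter rule, all higher at 500 nM, and at an adjusted p under 0.05 in limma 79 (0.27%) passed, 78 of them higher (0.266%) and 1 lower (0.00341%), in the ribosomal RNA gene Rn45s. When all NPs sorted on day 4 entered 1 model, so that more samples gave the spread of each element, 0 elements (0.0%) passed, with 3778 at an unadjusted p under 0.05. The SD over elements of the difference between the concentrations was 0.549 in replicate 1, the pair that holds the shallow library, and 0.181 in replicate 3. In the limma model with all NPs, 0 passed without 100 nM day 4 replicate 1 or without its partner at 500 nM (208 and 212 at an unadjusted p under 0.05), whereas 570 passed without 100 nM replicate 3 and 502 without 500 nM replicate 3, which leave replicate 1 as the only pair. In that model, calls on day 4 appeared when replicate 1 was the only pair, and the 79 calls of the p3 samples alone were not rerun without it.

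On day 5, 5 of 31179 elements (0.016%) met the stricter rule, all lower at 500 nM, and at an adjusted p under 0.05 in limma 20 (0.0641%) passed, 18 lower (0.0577%) and 2 higher (0.00641%). The 5 were near Ctsc, Gm6578, Bcl11b, Plcxd2 and Pisd-ps1, and are named because they were few, after their values had been seen. At the intergenic element near Ctsc, which encodes a lysosomal protease, the day 5 samples had 53, 623 and 77 normalized counts at 100 nM and 34 and 71 at 500 nM. At that near Bcl11b, which encodes a zinc finger factor of neurons and T cells, they had 37, 364 and 50 against 32 and 34. In all 5 elements a single library, 100 nM day 5 replicate 2, stood above the rest. With all NPs of day 5 in the model, 10 elements (0.0321%) passed, 9 lower (0.0289%) and 1 higher (0.00321%), of which 1 was among the 20 and 0 were among the 5. That number was 4 without replicate 2 at either concentration, and 40 and 41 without replicate 3 at 100 and 500 nM. The shared element lies 36515 bp from the start of Marcks, which encodes an actin-binding substrate of protein kinase C, and had 274, 206 and 283 at 100 nM and 347 and 485 at 500 nM (difference 0.73, limma adjusted p = 0.019, and 0.0079 with all NPs).

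On day 6, most elements that passed were lower at 500 nM and distal, while the median difference over all elements was 0.03. Of 33218 elements tested, 58 (0.175%) met the stricter rule, 57 (0.172%) with a decrease and 1 (0.00301%) with an increase. At an adjusted p under 0.05 in limma 1888 (5.68%) passed, of which 1318 (3.97%) were lower and 570 (1.72%) higher at 500 nM. With all NPs of day 6 in the model 676 (2.04%) passed, 659 (1.98%) lower and 17 (0.0512%) higher, and 51 lower (0.154%) met the stricter rule. These held 620 of the 1318 lower elements, all 17 higher ones being among the 570, and 57 of the 58 that met the stricter rule. The decreases thus outnumbered the increases in both fits, and most increases did not pass in the second. Without replicate number in the model 0 elements passed on any day, with 1066, 153 and 321 at an unadjusted p under 0.05 on days 4, 5 and 6, so the day 6 calls rest on the comparison within replicate numbers. The 2 samples at 500 nM were both below the 2 at 100 nM for 685 of the 1318 lower elements (52.0%), against 9.37% of all elements tested, and both above them for 276 of the 570 higher ones (48.4%), against 13.3%. These sets were chosen on the same 4 samples, so the shares describe them and support nothing. Centering each sample on its median gave 958 lower and 223 higher. In the model with all NPs, the count of 676 was 295 without 100 nM replicate 2, 128 without 100 nM replicate 3, 337 without 500 nM replicate 2 and 153 without 500 nM replicate 3, each of which leaves 1 pair, and at most 3 of these were higher at 500 nM.

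Whether the concentration effect differed between days was tested by an F test of the terms for concentration and day. It called 0 of 31287 elements (0.0%) in limma, with 947 at an unadjusted p under 0.05 and a lowest adjusted p of 0.872. With a separate replicate block for each day it again called 0, with 1161 at an unadjusted p under 0.05 and a lowest adjusted p of 0.0672. Without 100 nM day 4 replicate 1 the first test called 0 of 31564, with 376 at an unadjusted p under 0.05. A difference between day 6 and the other days was therefore not shown.

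The pMN NPs allowed a test of whether the day 6 response differed between cell types. Fitted alone by day in limma, pMN NPs had 499 (1.67%), 582 (1.81%) and 783 (2.35%) elements on days 4, 5 and 6, and with all NPs in the model 0 (0.0%), 7 (0.0217%) and 5 (0.015%), with 804 at an unadjusted p under 0.05 on day 4. A term for cell type and concentration called 356 of 33667 elements (1.06%) in limma, 352 with a lower response in p3 (1.05%) and 4 with a higher one (0.0119%), and 34 met the stricter rule. The stricter count was higher in every fit that left out 1 library, each of which leaves 1 sample in a group. On days 4 and 5 the same term called 0 elements (0.0%), with 1537 and 867 at an unadjusted p under 0.05, and without p3 100 nM day 4 replicate 1 it called 0 on day 4, with 1533. The 4 higher ones were near 7530416G11Rik, Olfr1402, Klhdc7a and Nptx2 and are named for their small number. At the Klhdc7a element p3 NPs had 335 and 603 normalized counts at 100 nM and 437 and 806 at 500 nM. The pMN NPs had 515 and 455 against 435 and 397 there. At the 7530416G11Rik element p3 NPs had 145 and 446 against 158 and 541, and pMN NPs had 620 and 1177 against 434 and 875. At all 4 elements pMN NPs were lower at 500 nM in both replicate numbers, so the higher response in p3 included a decrease in pMN. Without replicate number the day 6 term called 0, with 139 at an unadjusted p under 0.05, and leaving out 1 library gave 303 without p3 100 nM replicate 3 to 799 without pMN 100 nM replicate 2.

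The 10 largest decreases on day 6 were in 7 intergenic and 3 intronic elements, 5813 to 241627 bp from the nearest start. All 10 also passed in limma with all NPs in the model and in the test against pMN, and in all 10 both samples at 500 nM were below both at 100 nM. The same p3 libraries chose the 10 and enter these comparisons, which therefore describe them and add no support. The largest decrease was at the intergenic element shown first above, at chr16:91301030-91302255 and 31873 bp from the start of Olig1, which encodes a bHLH factor of motor neuron and oligodendrocyte progenitors. It had 607 and 574 normalized counts at 100 nM and 151 and 158 at 500 nM, a 3.79-fold decrease on the scale of log2 of the normalized count plus 1, with a difference of -1.85 (SE 0.128, limma adjusted p = 1.56e-42, and 1.72e-07 with all NPs). The 2 samples of each concentration lay close together and far from the other pair. On day 5 the same element had 442, 654 and 998 at 100 nM and 566 and 788 at 500 nM, and on day 4 it had 309, 209 and 351 against 265 and 319, so on these days the ranges overlapped. Within the same replicate numbers of day 5 it was lower at 500 nM in both pairs, with 654 and 566 in replicate 2 and 998 and 788 in replicate 3, but did not pass (difference -0.27, limma adjusted p = 0.658). It was also lower in both pairs of day 4, with 309 and 265 in replicate 1 and 351 and 319 in replicate 3. There too it did not pass (difference -0.17, limma adjusted p = 0.926). In pMN NPs of day 6 it had 2254 and 2728 at 100 nM and 2370 and 2574 at 500 nM, and in NMPs 5 to 16. The difference between p3 and pMN NPs in their response was -1.84 (SE 0.0986, limma adjusted p = 9.39e-07). Pooled over days, the difference in p3 NPs was -0.58 (95% confidence interval -1.11 to -0.05, limma adjusted p = 0.815).

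The other large decreases had the same order of p3 and pMN NPs on day 6. The intergenic element 241627 bp from Car8, which encodes a carbonic anhydrase-related protein of Purkinje cells, had 335 and 238 normalized counts at 100 nM and 62 and 89 at 500 nM on day 6 (3.74-fold lower), and 1727 to 2029 in pMN NPs. That near Ptf1aos, the antisense transcript of a bHLH gene of dorsal interneuron progenitors, had 232 and 200 against 81 and 59 (3.09-fold lower). The intergenic element 40740 bp from Hey2, which encodes a repressor downstream of Notch, had 208 and 166 against 85 and 55 (2.67-fold lower, difference -1.28, SE 0.187), and pMN NPs had 1487 to 1773. In each case p3 NPs at 100 nM already lay far below pMN NPs, and p3 NPs at 500 nM lay lower still. The remaining 6 were near 4930402F11Rik, 1700010B08Rik, Bcl2l11, which encodes a pro-apoptotic BCL2 family protein, 1700001D01Rik, Lpp, which encodes a LIM protein of focal adhesions, and Ppp1r9a, which encodes an actin-binding protein of neurons. They were 2.58- to 2.99-fold lower. On day 5 the samples of the element near 1700001D01Rik did not overlap either, with 196, 195 and 288 at 100 nM and 126 and 169 at 500 nM (difference -0.65, limma adjusted p = 0.216).

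**Figure D3:**
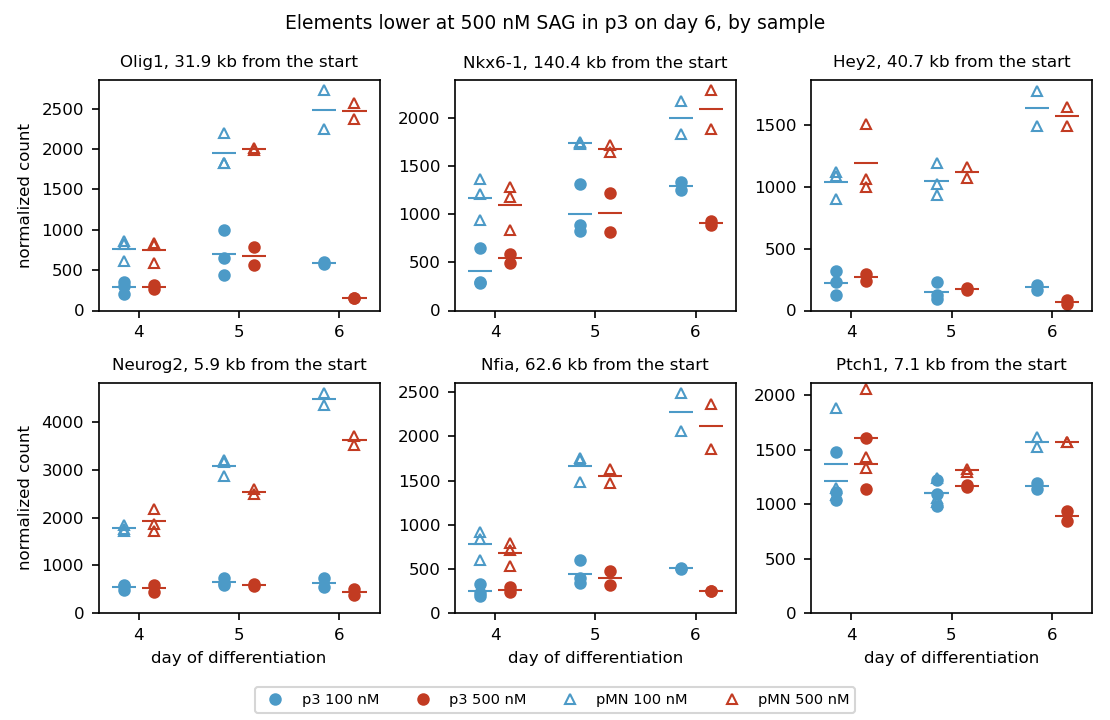
Normalized counts (y axis) of 6 elements that were lower at 500 nM SAG in p3 NPs on day 6, by day of differentiation (x axis), with 1 point per sample, circles for p3 and triangles for pMN, blue for 100 nM and red for 500 nM, and lines at the group means. The 2 red circles of day 6 lie below the blue ones at Olig1 (151 and 158 against 607 and 574), Nkx6-1, Hey2, Neurog2, Nfia and Ptch1, and the triangles of both colors lie above the circles on day 6.

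The 10 largest increases on day 6 were smaller and less certain. Of these, 1 met the stricter rule, in intron 3 of Aopep and annotated to Fbp1, which encodes a gluconeogenic phosphatase and starts 158405 bp away. It had 74 and 75 normalized counts at 100 nM and 118 and 192 at 500 nM, with a difference of 0.91 (SE 0.189, limma adjusted p = 0.000172, and 0.0769 with all NPs). In pMN NPs of day 6 it had 21 to 32. Of the 10 elements, 0 passed with all NPs in the limma model, and in 2 the samples of the 2 concentrations did not overlap. At the element in intron 5 of Slc22a3, for example, annotated to C030013G03Rik, the samples were 48 and 286 at 100 nM and 81 and 553 at 500 nM, so the replicates differed by more than the concentrations did. The other 8 were annotated to Gask1b, Gm4971, Crtam, Hsbp1, Tafa5, Rgs3, Pkd1l2 and Tcp10a, and their differences lay between 0.75 and 0.85.

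Among genes of the Hedgehog pathway, 4 of 58 elements tested were lower at 500 nM on day 6 and 0 higher (6.9% lower, against 3.97% of all elements tested), with a median difference of -0.04 against 0.03 over all elements. The 4 were at 3 genes, all of them intronic. The element of Ptch1 in intron 1, 7090 bp from the start, had 1192 and 1139 normalized counts at 100 nM and 941 and 848 at 500 nM (difference -0.38, SE 0.07, limma adjusted p = 1.05e-05, and 0.0315 with all NPs). Its counterpart in intron 2 had 1332 and 1065 against 1103 and 840 (difference -0.3, SE 0.069, limma adjusted p = 0.000768, and 0.0388 with all NPs), and here the samples overlapped. At Gli1, 2092 and 1890 fell to 1770 and 1356 (difference -0.36, SE 0.0618, limma adjusted p = 1.64e-06), but with all NPs the adjusted p was 0.206. At Gli2, the GLI factor that is the main activator, the element in intron 1 had 767 and 683 against 677 and 523 (difference -0.28, SE 0.0829, limma adjusted p = 0.0227, and 0.216 with all NPs). The difference from pMN NPs passed at 1 of the 4, the intron 1 element of Ptch1, where it was -0.38 (limma adjusted p = 0.0436), and pMN NPs themselves had 1523 to 1616 at both concentrations.

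Of 97 elements tested that are annotated to p3 identity genes, 18 were lower at 500 nM on day 6 and 1 was higher (18.6% lower, against 3.97% of all elements), with a median of -0.05. Of the 18, 6 also passed with all NPs in the limma model. They included 3 intergenic elements of Nkx6-1, at distances of 140408, 144351 and 341398 bp. The nearest of these, shown above and at chr5:101523582-101525024, had 1337 and 1251 normalized counts at 100 nM and 929 and 883 at 500 nM (difference -0.51, SE 0.0688, limma adjusted p = 1.15e-10, and 0.0019 with all NPs), and the pMN NPs had 1829 to 2291. Both samples at 500 nM were below both at 100 nM, and the response differed from that of pMN by -0.57 (limma adjusted p = 0.00258). The Nkx6-1 promoter did not pass, with a difference of 0.02 (SE 0.0592). Further elements that passed both fits were annotated to Neurog3, which encodes a proneural bHLH factor (204 and 210 against 129 and 79), and to Nkx6-2, which encodes the paralogue of NKX6.1 (1693 and 1429 against 1524 and 969). In pMN NPs of day 6 these 2 had 684 to 886 and 2408 to 2544. The Nkx6-1 element at 144351 bp had 1252 to 1817 in p3 and 3200 to 3974 in pMN NPs of day 6. That at 341398 bp had 532 to 970 and 939 to 1451. The elements named here that passed both fits were thus higher in pMN than in p3 NPs, with ranges that overlapped at the last, although annotated to p3 identity genes.

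At Nkx2-9, 4 elements were lower on day 6 at an adjusted p under 0.05 and 0 of them passed with all NPs. The promoter element, at chr12:56611650-56615607, had 2137 and 2026 normalized counts at 100 nM and 1874 and 1619 at 500 nM (difference -0.25, SE 0.0611, limma adjusted p = 0.00176, and 0.091 with all NPs). In pMN NPs of day 6 it had 1786 and 2159 at 100 nM and 2113 and 2305 at 500 nM, so the order of the concentrations was the opposite there, and the difference between the cell types was -0.42 (limma adjusted p = 0.0195). The intergenic element 8166 bp from the start had 305 and 321 against 201 and 193 in p3 NPs and 350 and 496 against 484 and 615 in pMN NPs, a difference between the cell types of -1.02 (limma adjusted p = 0.00308). At Nkx2-2 the p3 samples of day 6 had 3954 and 3841 at 100 nM and 3829 and 3203 at 500 nM (difference -0.15, limma adjusted p = 0.0982), and the difference from pMN was -0.39 (adjusted p = 0.0243). Further calls were at elements of Rfx3, a factor of ciliogenesis (3 lower), of Foxa2 (2 lower and 1 higher) and of Nkx6-1 (2 lower), and none of these passed with all NPs.

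Floor plate genes had a different balance. Of 68 elements tested, 4 were higher at 500 nM on day 6 (5.88%, against 1.72% of all elements) and 1 was lower, with a median of 0.08 against 0.03 over all elements, and 0 of the 4 passed with all NPs in the limma model. The intergenic element annotated to Foxa2 that lies 44981 bp from its start, the 1 higher element of the p3 identity list, and the element 9551 bp from Shh had the same profile. The first had 294 and 973 normalized counts at 100 nM and 400 and 1427 at 500 nM (difference 0.49, limma adjusted p = 1.46e-06, and 0.668 with all NPs), and the second had 148 and 862 against 203 and 1229 (difference 0.46, adjusted p = 0.000655, and 0.501 with all NPs). In both, replicate 3 was far above replicate 2 at either concentration, and the concentrations overlapped. The other 3 higher elements of the floor plate list were 2 at Slit3, which encodes a secreted guidance factor, and 1 at Lmx1a, which encodes a LIM homeodomain factor. The element in intron 2 of Spon1, which encodes a secreted floor plate protein, was lower, with 852 and 635 against 722 and 404 (difference -0.44, limma adjusted p = 3.42e-05, and 0.0437 with all NPs).

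Elements of pMN and motor neuron genes included the largest decrease of day 6, near Olig1. Of 30 tested, 5 were lower on day 6 (16.7%, against 3.97%) and 1, in intron 1 of the LIM homeodomain gene Isl2, was higher, with a median of -0.02 and differences from -1.85 to 0.43. The element at the start of Olig2, which encodes the bHLH factor of the gate, had 1060 and 1131 normalized counts at 100 nM and 925 and 904 at 500 nM (difference -0.26, limma adjusted p = 0.0096, and 0.19 with all NPs), and both samples at 500 nM lay below both at 100 nM. The intergenic element 5902 bp from Neurog2, which encodes a proneural bHLH factor of motor neuron progenitors, had 726 and 549 against 505 and 372 (difference -0.53, SE 0.093, limma adjusted p = 2.47e-06, and 0.0009 with all NPs). In pMN NPs the same element differed by -0.31, and the difference between the cell types did not pass (-0.22, limma adjusted p = 0.216).

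Markers of pMN moved with these results. On day 6 the sum over the 39 pMN marker elements was 8200 and 8048 normalized counts in p3 NPs at 100 nM and 6485 and 6132 at 500 nM, a ratio of 0.776, and both samples at 500 nM lay below both at 100 nM. Of the 39, 3 had a mean under 10 in p3 NPs, and 3, among them the Olig1 element, were themselves called on day 6. Without these 3 the sums were 4045 and 4475 at 100 nM and 3550 and 4038 at 500 nM, a ratio of 0.891, a comparison added after seeing the data. Sums over 23 neural crest marker elements were also lower, with 3027 and 3139 at 100 nM and 2786 and 2946 at 500 nM, a ratio of 0.929. Over 22 elements of fibroblast feeder markers they were 1876 and 1651 against 1678 and 1450, a ratio of 0.887, which became 1.01 without the 2 of them that were called. The part of these markers in the day 6 result was not tested. Across days the exact permutation test gave p = 0.273 for the sum over the 39 pMN marker elements. Of 11 marker lists none passed, the lowest p of that test being 0.0867 for fibroblast feeders (0.522 after Benjamini-Hochberg adjustment over the 11). Over 64 floor plate marker elements, day 6 sums were 16341 and 19530 at 100 nM and 16710 and 21045 at 500 nM, which overlap.

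**Figure D4:**
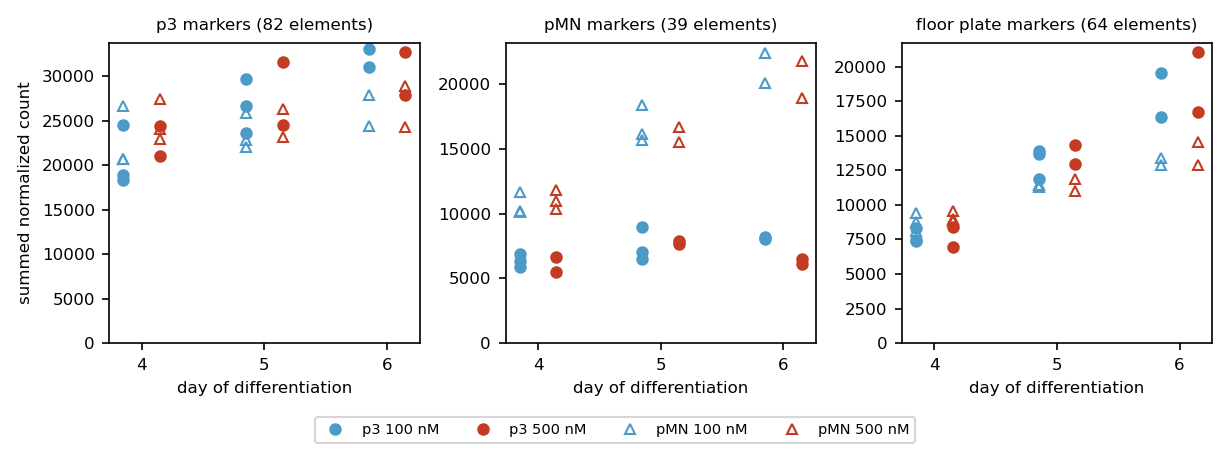
Summed normalized counts (y axis) over the elements annotated to p3, pMN and floor plate marker genes, by day of differentiation (x axis), with 1 point per sample, circles for p3 and triangles for pMN, blue for 100 nM and red for 500 nM. In the middle panel the pMN samples of day 6 lie between 18902 and 22360 and the p3 samples between 6132 and 8200, with both 500 nM samples below both 100 nM samples.

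Other lists held few called elements. Late temporal factors, which progenitors express as they shift towards gliogenesis, had 4 of 36 elements lower (11.1%, against 3.97%) and 0 higher. The strongest was in intron 2 of Nfia, 62602 bp from the start, with 510 and 500 normalized counts at 100 nM and 247 and 254 at 500 nM (difference -0.97, SE 0.117, limma adjusted p = 1.17e-13, and 1.9e-06 with all NPs). The 2 samples of each concentration were nearly equal, and the response differed from pMN by -0.86 (limma adjusted p = 0.000687). Among neuronal genes 5 of 44 elements were lower (11.4%, against 3.97%) and 1 higher (2.27%, against 1.72%). One of the lower was in intron 1 of Elavl4, which encodes a neuronal RNA-binding protein, with 759 and 400 against 531 and 274 (difference -0.51, limma adjusted p = 3.78e-05, and 0.00509 with all NPs). Among Notch pathway genes 3 of 51 were lower (5.88%, against 3.97%), near Hey2, Hes1 (767 and 786 against 543 and 479, limma adjusted p = 1.15e-09) and Lfng. In this list 1 was higher, in Notch2 (1.96%, against 1.72%), so both shares lay near those of all elements. Genes of FGF-ERK feedback had 3 of 38 lower (7.89%, against 3.97%), at Spred2, Spry2 and Dusp6, of which Spred2 (491 and 573 against 342 and 402) and Spry2 passed with all NPs.

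Retinoic acid genes had 5 of 52 elements lower and 1 higher, p0, p1 and p2 identity genes had 7 of 69 lower and 1 higher, and neural progenitor genes had 2 of 37 lower, near Sox1 and Sox3. These are 9.62%, 10.1% and 5.41% lower, against 3.97% of all elements tested. With all NPs in the model, 1 retinoic acid element, 2 of the p0, p1 and p2 identity genes and both neural progenitor elements passed. Wnt targets went the other way, with 3 of 24 higher (12.5%, against 1.72%), at Notum, Nkd1 and Znrf3, and 0 passed with all NPs. The 55 Hox elements had 4 lower (7.27%, against 3.97%) and 1 higher (1.82%, against 1.72%). Those of the BMP response had 1 higher (Msx1) of 40 (2.5%, against 1.72%), and early temporal factors 1 lower (Igf2bp3) of 21 (4.76%, against 3.97%). The shares of these last 2 lists lay near those of all elements. The NMP list had 0 of 18 in limma, with 1 at an unadjusted p under 0.05. Lists of other cell types were small: neural crest had 3 of 19 lower (15.8%, against 3.97% of all elements), at Sox10 and 2 at Ets1, which all passed with all NPs too, fibroblast feeders 2 of 12 lower (16.7%, both near Col1a2) and 1 higher (Thy1), endoderm 2 of 16 lower (12.5%), mesoderm 1 of 29 lower (3.45%, Pax9), and pluripotent genes 0 of 11, with 1 at an unadjusted p under 0.05. Pooled over days, 0 elements of any list passed.

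The lower elements of day 6 were mostly distal. Of the 1318, 52.5% were intergenic and 2.12% were promoter elements, against 30.6% and 20.6% of all elements tested, and their median distance to a start was 55713 bp against 11283. Their median GC content was 45.8%, against 51.8%. The 570 higher elements lay nearer to genes, with 25.4% at promoters and a median distance of 7071 bp. Of the 57 that met the stricter rule, 39 were intergenic, 18 intronic and 0 at promoters, at a median distance of 47468 bp.

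The levels of these sets in other libraries place them. On the log2 scale, the median of the 1318 lower elements was 4.99 in NMPs, 7.97 in p3 NPs of day 4 at 100 nM and 8.91 on day 6, against 8.45 at 500 nM on day 6. In pMN NPs of day 6 it was 9.78 at 100 nM and 9.72 at 500 nM, and in p2 NPs of day 6 it was 9.39 at 10 nM and 9.47 at 100 nM. The set had low values in NMPs, and on every day p3 NPs lay below pMN NPs of the same concentration. The 570 higher elements had the opposite order, with 8.89 and 9.22 in p3 NPs of day 6 against 8.3 and 8.38 in pMN NPs, and 8.4 in NMPs.

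The day 6 differences were also described over groups of elements defined without the day 6 p3 libraries. Elements more accessible in pMN than in p3 NPs on day 5, by over 4-fold in normalized counts, numbered 1220, of which 301 passed the filter on the mean on day 6. Of the 301, 82 were lower (27.2%, against 3.97%) and 3 higher (0.997%, against 1.72%), with a median of -0.16 against 0.03. Those more accessible in p3 than in pMN numbered 643, of which 642 passed. Of the 642, 54 were higher (8.41%, against 1.72%) and 3 lower (0.467%, against 3.97%), with a median of 0.1. Elements that p0-1 NPs had opened by day 4 relative to NMPs had 648 of 2989 tested lower (21.7%) and a median of -0.15, and those higher in p0-1 NPs on day 6 than on day 4 had 336 of 1483 lower (22.7%) and a median of -0.21. Elements higher in p0-1 NPs on day 4 than on day 6 lay near the share of all elements, with 10 of 226 lower (4.42%) and a median of -0.05. Elements higher in pMN than in p0-1 NPs had 56 of 403 lower (13.9%), and of those higher in p0-1 than in pMN NPs only 15 were tested and none passed. Elements of NMPs had 10 of 371 higher (2.7%, against 1.72%) and 2 lower (0.539%, against 3.97%). Of these groups, those with the lowest medians on day 6 had none below 0 on the other days that were described for them. Their medians were 0.1 on day 4 and 0 on day 5 for elements opened by day 4 over NMPs, 0.21 and 0.01 for those higher in p0-1 NPs on day 6, and 0 on day 4 for those of pMN over p3 NPs, against -0.1 and 0.01 for all elements on days 4 and 5. The day 4 pairs differed. Over all members, those higher in p0-1 NPs on day 6 went from 5.4 at 100 nM to 5.72 at 500 nM in replicate 1, the pair with the shallow library. In replicate 3 they went from 5.65 to 5.61. Those of pMN over p3 NPs on day 5 went from 5.66 to 5.77 and from 5.73 to 5.72. The rise on day 4 was thus seen only in replicate 1 for these groups. Groups defined with the day 6 p3 libraries were described on days 4 and 5. Elements of pMN over p3 NPs on day 6 had medians of 0.06 and -0.11, with 72% lower on day 5, against 47.5% of all. Those of p3 over pMN NPs on day 6 had medians of 0.4 and 0.12. Those of p3 over pMN NPs on day 5 had 0.45 on day 4, with 15 of 429 higher (3.5%, against 0.266%). Over all members, this group went from 6.61 at 100 nM to 7.38 at 500 nM in replicate 1 of day 4, and from 7.37 to 7.55 in replicate 3. Elements of p3 over pMN NPs on day 6 went from 6.11 to 6.84 and from 6.88 to 7.06. Both groups thus rose more in the pair with the shallow library. With all NPs in the model, 0 elements passed on day 4. These groups share elements, and their counts stand only beside those of all elements.

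In the pairs of samples with the same number on other days, the day 6 sets did not move uniformly. Of the 1318 lower elements, 77.4% were lower at 500 nM in replicate 3 of day 4 and 79.1% in replicate 3 of day 5, against 53.9% and 45.4% of all elements. In replicate 1 of day 4, the pair with the shallow library, 28.1% were lower, against 56% of all, and in replicate 2 of day 5 44.6%, against 46.1%. The 570 higher elements were higher in 70.7% and 86.8% in replicate 3 of days 4 and 5, in 68.8% in replicate 2 of day 5 and in 49.3% in replicate 1 of day 4. The medians of the lower set on the log2 scale were 0.25 in replicate 1 and -0.13 in replicate 3 of day 4, and 0.03 in replicate 2 and -0.13 in replicate 3 of day 5, compared with -0.41 and -0.5 on day 6. In pMN NPs the same pairs had medians of 0.08, -0.08, -0.02 and -0.11, and -0.04 and -0.03 on day 6. For the higher set, pMN NPs had 0.01, 0.05, 0.06 and 0.11, and 0.04 and 0.15 on day 6.

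**Figure D5:**
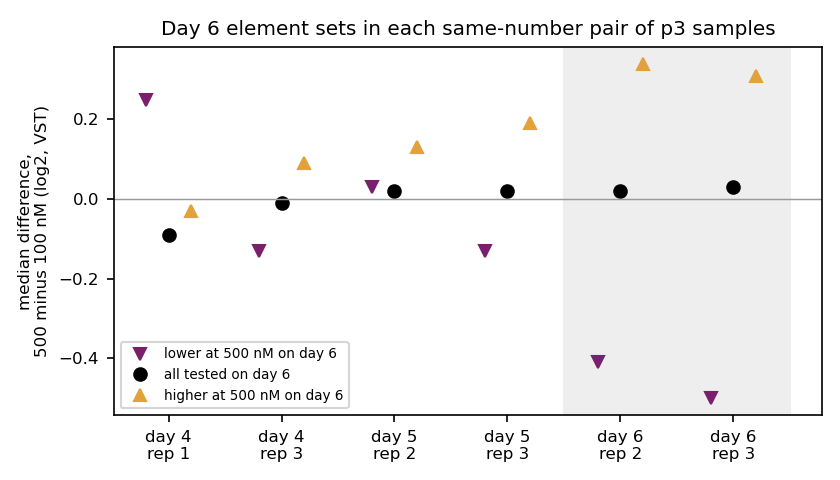
Median difference between 500 and 100 nM SAG (log2, VST, y axis) over the 1318 elements lower on day 6 (purple), the 570 higher on day 6 (yellow) and all 33218 tested (black), in each pair of p3 samples of the same day and replicate number (x axis), the 2 shaded pairs being those that chose the sets. Outside the shaded pairs the purple medians lie at 0.25, -0.13, 0.03 and -0.13, on both sides of 0.

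The letters searched in the windows shown above were then counted over the day 6 sets, as a description of sequence. The SOX letters were in 14% of the lower elements, 3.68% of the higher ones and 5.55% of all tested. The GLI letters were in 1.67% of the lower elements, which is 22 elements, against 0.358% of all, and the Pou letters in 3.41% against 1.69%. The FOXA letters had the reverse order, with 10.2% of the lower, 18.4% of the higher and 11.3% of all. The OLIG letters were in 5.31% of the lower elements and in 7 of the 57 that met the stricter rule (12.3%), against 3.35% of all. In these 57 the SOX letters were in 2 (3.51%) and the GLI and Pou letters in 0, below their shares of all elements and so opposite to the 1318, although 57 elements give few matches. The FOXA letters were in 5 of the 57 (8.77%), below their share of all elements as in the 1318. Away from promoters the same shares were 14.2% of the lower and 6.56% of all elements for SOX, and 21.2% of the higher and 13% of all for FOXA. The NKX2 letters (14.3%, 10.4% and 11.9%), those of AP-1 (8.04%, 7.54% and 6.63%), NFI and CTCF were less unequal or rare.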

How the data were processed

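The study's accessible elements were called by the authors with MACS and pooled over samples into 1 consensus set, annotated with HOMER on mm10 (versions not given in the sources used here). The deposited log2 values are read counts that the authors divided by size factors and variance-stabilized, with 67 columns. Inverting the transform returned whole reads in 111638 elements, to within 3.57e-11 of a whole number below 1000 reads, and from these reads normalized counts and depth were computed. Linear models were fitted in limma 3.58.1 (R 4.3.3) with an intensity trend and Benjamini-Hochberg adjustment over all elements with a mean above 100 normalized counts. Calls used an adjusted p under 0.05, or under 0.01 with a fold above 2 on log2 of the normalized count plus 1. Models had day, replicate number from the sample titles and concentration, or replicate number and concentration within a day. The models were tested on simulated data. In 7 of the 14 p3 samples the description gives another number than the title.

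Same-numbered NPs of a day deviated together on day 5 (31 pairs, r = 0.395 to 0.734 across elements) and day 6 (26 pairs, r = 0.163 to 0.8), but not throughout on day 4 (32 pairs, r = -0.463 to 0.668, with 8 at or under 0.1, of which 7 involved p3 100 nM replicate 1), so the numbers pair samples on days 5 and 6, as seen in the data and not from a stated shared differentiation. The model with all NPs of a day had a replicate term for each cell type and concentration within cell type. Elements were named by rule: those at the starts of 11 genes (the promoter class, or the nearest within 10000 bp), the 10 largest increases and decreases of day 6, all called elements of the Hedgehog, p3, floor plate and pMN lists, and the largest of each other list. Some elements that the rule named are not reported here. Members and lists were chosen with earlier results of these data known. Sequences were read from GRCm38. Alternatives were another replicate term, centering, GC and width correction, voom, array weights, other filters, and leaving out libraries or days. Single values were compared by exact permutation tests within days in Python 3.11.15 (scipy 1.17.1).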

Additional observations from a re-analysis of the deposited data

Results flagged for a closer look

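In 3 of 52 groups of samples examined, a single library stood apart by Dixon's criterion, which chance alone exceeds in about 1 in 20 groups. The Foxa2 promoter element had 1927 normalized counts in p3 NPs of 100 nM day 6 replicate 3, above the other samples of that concentration. The element nearest Shh had 377 in 500 nM day 6 replicate 3, above the other samples at 500 nM. The summed neuronal markers were 4525 in 100 nM day 6 replicate 2, against 3711 in replicate 3.

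For 18 elements, named as lower in p3 NPs on day 6, the effect of concentration differed between p3 and pMN NPs in the limma test of that difference, with the lower value in p3. The same p3 libraries named them and enter the test, so the choice favors a lower value in p3. Over all elements the test called 356 of 33667 (1.06%). Among the largest decreases the difference (p3 minus pMN, log2) was -1.84 near Olig1, -1.73 near Car8, -1.26 near Ptf1aos, -1.31 near 4930402F11Rik, -1.09 near 1700010B08Rik, -1.23 near Hey2, -1.1 near Bcl2l11, -1.06 near 1700001D01Rik, -1.15 near Lpp and -1.02 in Ppp1r9a. At genes of the p3 identity list it was -0.42, -0.9 and -1.02 at 3 elements of Nkx2-9 and -0.57 at each of 2 elements near Nkx6-1. Elsewhere it was -0.38 in Ptch1, -0.46 near Spred2 and -0.86 in Nfia.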

How the results depend on the processing

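With days pooled, the count in p3 NPs was 0 without a replicate block, with the block from the descriptions or within each day, without any 1 library or day, with centering, GC correction, voom or other filters. Array weights gave 156 elements at an adjusted p under 0.05, with weights that had not converged. The fits of single days depended on the block and on the spread. Without the replicate block, 0 elements passed either rule on days 4, 5 and 6, 0 in pMN NPs with days pooled (943 at an unadjusted p under 0.05 in limma) and 0 in the day 6 test of cell type, and 325 passed in p0-1 and 1644 in p2 NPs. With all NPs in the model, 0 passed on day 4 under either rule, 10 on day 5 (0 under the stricter rule) and 676 on day 6. Centering gave 1181 on day 6. Leaving out 1 p3 library in the model with all NPs gave 0 to 570 on day 4 (502 without 500 nM replicate 3, and 0 under the stricter rule), 4 to 41 on day 5 (40 without 100 nM replicate 3, and 0 to 4 under the stricter rule) and 128 to 337 on day 6 (295 without 100 nM replicate 2 and 153 without 500 nM replicate 3). Under the stricter rule, day 6 gave 26 to 73, with 36 without 500 nM replicate 3. The day 6 test of cell type gave 303 to 799 without 1 library. The model with all NPs, its omissions, the tests of cell type by day, and centering, GC correction and voom for day 6 were chosen after seeing the data. The 10 largest decreases of day 6 passed with all NPs, centering, GC correction and voom, and lost the call without the block, whereas the 10 largest increases lost it with all NPs as well. Among the 10 largest decreases and 10 largest increases of day 6, none changed its sign under these alternatives. The signs of the other elements that passed were not followed.

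With 2 samples per concentration on a day, an exact permutation test could not go below p = 0.333, so the day 6 calls from p3 samples alone rest on the spread limma shares between elements. Depth was lower at 100 nM, and its part in the results was not tested.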
